A study of Homo sapiens with 2 samples.

Results

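Surface and self-renewal markers of cancer stem cells were followed here in 2 populations of a human tongue squamous cell carcinoma line. The markers were 9 genes picked by name, namely CD44, CD24, PROM1, ALCAM, THY1, PDPN, EPCAM (written TACSTD1 on the array), KIT and BMI1, out of 30396 gene names on the array. All 9 genes were found, with 13 probes and 31 spots. The parental population was the SAS line, grown in culture without selection. The other, eSAS, is what was left of SAS cells after 5 rounds in which the larger spheroids, the cell balls formed in culture, were caught on a removable filter and grown on. Both descend from 1 line and were compared without any further treatment or genetic change, so eSAS is 1 selected population, and effects of selection and of drift in culture cannot be told apart. Total RNA, 200 ng of each, was labelled with Cy3 and hybridised to 1 whole-genome array per population. With 1 array per group and no replicate, the populations could not be tested against each other, and the values carry no p-value.

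Cells that regrow a tumour or form spheroids are often sorted by proteins at the cell surface. CD44 binds hyaluronan of the matrix, CD24 is a small mucin-like protein anchored in the membrane by a lipid, EPCAM is an epithelial adhesion protein, PROM1 (CD133) sits on membrane protrusions, and ALCAM (CD166) and THY1 (CD90) are adhesion proteins of the immunoglobulin superfamily. PDPN (podoplanin) is a mucin-type glycoprotein of basal squamous cells and lymphatic endothelium that binds the platelet receptor CLEC1B (CLEC-2), and KIT is the receptor tyrosine kinase for stem cell factor. BMI1 is no surface protein but a subunit of Polycomb repressive complex 1, which silences the CDKN2A locus and so permits continued division.

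Each array held 45015 spots, of which 43376 were probe spots. The scanner software's criterion put 69.4% of these well above background in SAS and 67.5% in eSAS, and none was saturated. Levels are processed signals in arbitrary units, and ratios are on the log2 scale after each array was set to its own 75th percentile, a signal of 1242 in SAS and 1196 in eSAS. Over the 26659 probes well above background on both arrays, the median log2 ratio was -0.0039, with an SD of 0.36. Replicate spots of 1 probe differed in this ratio by an SD of 0.066 (204 probes). That SD is a technical error within these arrays and leaves out the spread between cultures. All 13 squamous epithelial marker genes looked up were well above background on both arrays, which matches the labelled cell type, and their median log2 ratio was -0.48. Signals of different probes are not set against each other, since probes differ in how well they bind.

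PDPN was the marker that differed between the populations. Its 2 probes were 4.22-fold and 4.16-fold lower in eSAS, while the other 9 measured probes, from 6 genes, had log2 ratios between -0.41 and 0.18. KIT and PROM1, with 1 probe each, were not well above background on either array. Of the 11 measured probes, 2 were at least 2-fold lower, against 1.97% of all probes, and 0 were at least 2-fold higher, against 1.83%. Those shares are over the 28439 probes well above background on at least 1 array, with bounds counted. Among the 26659 well above background on both arrays, 335 were at least 2-fold lower and 250 higher. Both lower probes belong to 1 gene and so count as 1 change. The median over the 11 probes was 0.024. A ratio within 0.2 of 0 was found for 8 of the 11 probes, against 63.7% of all probes. The plot of processed signals shows each probe on both arrays, with PDPN as the pair of long lines and the other markers as near-overlapping points.

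**Figure D1:**
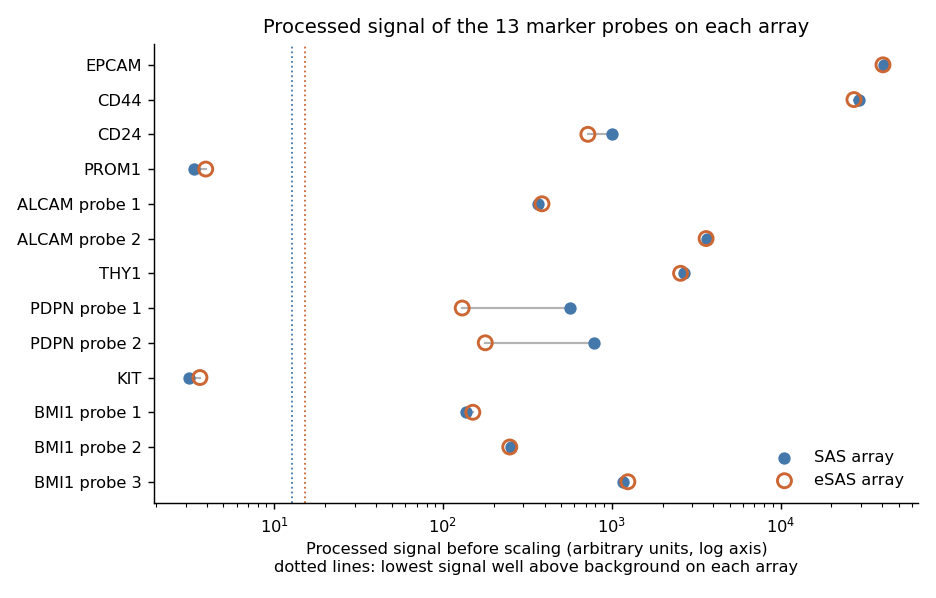
Processed signal in arbitrary units on a log axis for the 13 probes of the 9 marker genes, with filled points for the SAS array and open circles for the eSAS array (1 array each, mean of the spots of a probe); dotted lines mark the lowest signal well above background, 12.8 in SAS and 15.2 in eSAS. The PDPN probes fell from 562 to 130 and from 781 to 178, and KIT and PROM1 lie left of the dotted lines.

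PDPN, the podoplanin gene, lies on chromosome 1. The first of its probes, at chr1:13813409-13813468 of the hg18 genome, had a signal of 562 in SAS and 130 in eSAS. The second, at chr1:13815270-13815329, had 781 in SAS and 178 in eSAS. The log2 ratios were -2.06 and -2.08, and the software's error model for single spots gave each an SE of 0.21. The gene as the mean of both probes was thus 4.19-fold lower in eSAS (log2 -2.07). The probes differed from each other by 0.019, against a median difference of 0.11 over the 3960 genes measured with 2 probes. They sat in distant places on the array, in rows 276 and 7, and neither spot was marked as non-uniform or as an outlier. The median log2 ratio of the spots around them was 0.015 and 0.0055. Only 44 and 41 of the 26659 probes had a ratio as low or lower, 0.165% and 0.154%. Among 5322 genes with at least 2 measured probes, 19 were at least 2-fold lower in eSAS with every probe (0.357%), PDPN among them. At a 4-fold limit, which was not planned and lies just under the PDPN values, 4 genes were left (0.0752%). They were PMEPA1, MAOB, GLI2 and PDPN, of which the other 3 were named after their values were seen. With the limit placed there, that share does not measure how rare the PDPN value is.

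Of 15 other ways of processing the files, 6 left the PDPN value as it was, since its spots entered them with the same values. Of the 9 that changed it, 7 gave a value 3.19-fold to 4.35-fold lower in eSAS. Under the remaining ones, a normexp background correction fitted to every spot, its log2 ratio came to 0.012 using mean pixels and 0.045 using median pixels, and the call was lost. Those fits also moved the median of all probes to 0.53, so relative to that median PDPN stood at -0.52 and -0.49. With 26 spots with a marked local background left out of the fit, a choice made after the data were seen, the ratio was -1.71 and -1.68. Without any background correction it was -1.77. The pixel values before any correction were 674 and 192 for the second probe in SAS and eSAS, and 674 and 190 for the first.

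**Figure D2:**
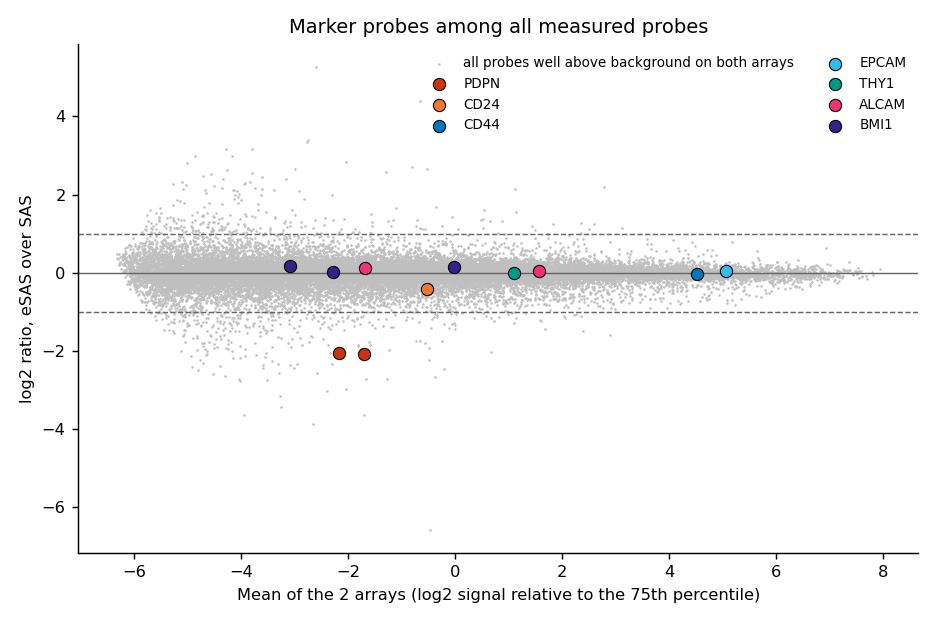
Log2 ratio of eSAS over SAS against the mean of the 2 arrays (log2 signal relative to the 75th percentile) for each of the 26659 probes well above background on both arrays (grey), with the 11 measured marker probes in colour and dashed lines at a 2-fold difference. The PDPN points lie at -2.06 and -2.08, CD24 at -0.41, and the other markers near the line at 0.

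The plot of all probes places PDPN below the cloud at its level of signal, and CD24 within it. Of the 13 squamous marker genes, 11 lay within 2-fold, 1 was higher and 1 lower, against 1.98% and 2.13% of all genes. The lower one was KRT14, a keratin of basal squamous cells, whose probes had log2 ratios of -6.58 and -1.23, and the higher one was KRT6B, a keratin of stressed and growing epithelium, with 2.62. The summed signal over the squamous list went from 69323 in SAS to 39914 in eSAS. This sum and those of the other cell types add signals before scaling over every probe of a list, dim ones included. Bright probes thus weigh most in them, and they do not measure amounts of a cell type. In bulk RNA, fewer cells with PDPN and less PDPN RNA in each cell cannot be told apart, and whether the keratin changes play a part in the PDPN value was not tested. Of 5 endothelial markers, 2 were well above background in SAS and 1 in eSAS, with a summed signal of 124 and 112. VWF was well above background on both arrays at 1 probe, with a log2 ratio of -0.104, and CDH5 in SAS alone (17.03). PECAM1, KDR and TEK were not well above background on either array.

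Of the genes named here for proteins that bind PDPN or act below it, those measured differed less than PDPN did. The platelet receptor CLEC1B was not well above background on either array (8.75 in SAS and 4.11 in eSAS). CCL21, a chemokine that podoplanin holds, had 44.3 and 43.2, a log2 ratio of 0.016. LGALS8, a galectin partner, had 3 probes, with a mean log2 ratio of -0.17. EZR (ezrin) and MSN (moesin), which tie the tails of both PDPN and CD44 to actin, went in opposite directions. EZR had 20834 and 25999 at one probe and 5120 and 5926 at the other, log2 ratios of 0.37 and 0.27, while all 4 MSN probes were lower in eSAS, from -0.20 to -0.40. None of these reached 2-fold. RHOA, the GTPase activated downstream of podoplanin, had a mean log2 ratio of -0.031 over 3 probes.

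CD44, the hyaluronan receptor, was measured by a probe at chr11:35207510-35207569 spotted 10 times, which gave the most precise value of the set. Its signal lay between 27918 and 29964 over the SAS spots and between 26424 and 28087 over the eSAS spots. After scaling, the spots of the arrays overlapped, from 4.49 to 4.59 in SAS and from 4.47 to 4.55 in eSAS on the log2 scale. The mean log2 ratio was -0.042 ± 0.036 (SD, n = 9 spots), with 1 spot left out because the software had marked it as an outlier on the eSAS array. Over all 10 spots the mean was -0.049, and 9 of the 10 were lower in eSAS. The spots share 1 pair of arrays and 1 scaling, so they are not independent. The CD44 ratio was -0.096 without scaling, -0.0080 with median centring and -0.018 with quantile normalization. Probes at the CD44 locus without the CD44 name on the array were not counted as members. Of these, the probe that the array describes as a soluble CD44 transcript with an exon v9 extension had 99.0 in SAS and 92.5 in eSAS, a log2 ratio of -0.04, and the one described with exon v10 had 176 and 158, a log2 ratio of -0.11.

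**Figure D3:**
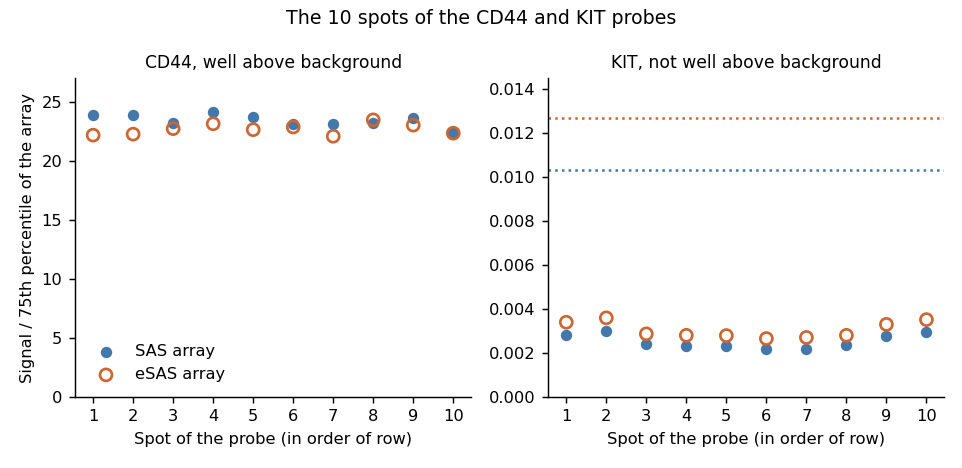
Signal divided by the 75th percentile of the array for each of the 10 spots of the CD44 probe (left) and of the KIT probe (right), with filled points for SAS and open circles for eSAS (1 array each); both axes start at 0. The CD44 spots of the arrays overlap, and every KIT spot lies below the dotted lines that mark the lowest signal well above background.

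The plot of replicate spots shows for CD44 a small difference with overlapping spots, and for KIT a signal that stayed under the background limit in each spot. The genes around CD44 also differed little. Of 27 genes for hyaluronan enzymes, ligands, sheddases, tail partners and splicing factors, 21 were measured, 0 were at least 2-fold higher, against 1.98% of all genes, and 1 was at least 2-fold lower, against 2.13%. Their median log2 ratio was -0.035, against -0.0012 over all genes. The lower gene was SRGN (serglycin), the core protein of a secreted proteoglycan that CD44 binds, with 1046 in SAS and 257 in eSAS, 3.91-fold lower, at 1 of its probes, the other not being well above background. VCAN (versican), another matrix proteoglycan, had 103 and 52.1, a log2 ratio of -0.93. Of the hyaluronan synthases, HAS2 was not well above background on either array (2.76 and 3.28), and HAS3 had 166 and 120, a log2 ratio of -0.41, at its only measured probe. SPP1 (osteopontin), a secreted ligand, was not well above background (3.71 and 4.32). ESRP1, the epithelial splicing factor that favours the variant exons of CD44, had 1584 and 1294, a log2 ratio of -0.24. The sheddases ADAM10 and ADAM17, which cut CD44 at the surface, had log2 ratios of -0.035 and 0.046.

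CD24 gave a signal of 998 in SAS and 722 in eSAS, 1.33-fold lower (log2 -0.41), from a single spot with an error-model SE of 0.20. A ratio this far from 0 in either direction was found for 14.6% of all probes, so it was short of the 2-fold limit and not rare. The spots around it had a median log2 ratio of 0.056. Its row, 481, lies in rows 450 to 510, which held 183 of the 194 non-uniform probe spots of the SAS array, but the CD24 spot itself was unmarked. The array places this probe on chromosome Y, chrY:19612206-19612265 of hg18, where a near-identical copy of CD24 lies, while the RefSeq gene table of GRCh38.p14 has CD24 itself on chromosome 6. Signal from CD24 and from copies of it cannot be told apart with this probe. A probe without the CD24 name on the array, at chrY:19612177-19612236, overlaps its position and was not counted as a member. That overlapping probe had 31.9 in SAS and 29.2 in eSAS, a log2 ratio of -0.076.

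EPCAM, the epithelial adhesion protein, was measured at chr2:47467398-47467457. It had 40809 in SAS and 40413 in eSAS, a log2 ratio of 0.040, less than the SD of replicate spots. CLDN7, the tight-junction protein that forms a complex with EPCAM, had 4416 and 7310 and was 0.78 higher on the log2 scale, the largest rise in this list. CDH1 (E-cadherin) had 5289 and 3652, a log2 ratio of -0.48. PROM1 was not well above background, with 3.37 in SAS and 3.93 in eSAS at chr4:15579755-15579814, so no ratio is given. PROM2, its relative in epithelial protrusions, was measured at 255 and 174, a log2 ratio of -0.50. Of 15 relatives and partners of CD24, EPCAM and PROM1, 12 were measured and 0 reached a 2-fold difference in either direction (1.98% of all genes were higher and 2.13% lower), with a median of 0.025. The selectin SELP and the receptor SIGLEC10, which bind CD24 on other cells, were not well above background.

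ALCAM had 2 probes. The one at chr3:106568913-106568972 gave 368 in SAS and 386 in eSAS, a log2 ratio of 0.13. The other gave 3648 and 3620, a log2 ratio of 0.043, and its position, chr3:106754075-106773400, spans 19326 bases, so its 60 bases are not contiguous in the genome. The gene as a whole stood at 0.084. CD6, the T-cell receptor for ALCAM, was measured at 86.7 and 91.0 at 1 of 2 probes, a log2 ratio of 0.13. NRCAM, another cell adhesion protein of the immunoglobulin superfamily, had 54.8 in SAS and was not well above background in eSAS (16.1), at least 3.29-fold lower from 1 spot.

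THY1, at chr11:118794181-118794240, had 2667 in SAS and 2556 in eSAS, a log2 ratio of -0.0071. THY1 is also a marker of fibroblasts. Of 7 fibroblast genes, 1 was well above background in SAS (COL1A1, 15.1) and 1 in eSAS (LUM, 29.6, at least 2.40-fold higher). Their summed signal was 75.6 and 84.7. The other genes of this list, COL1A2, COL3A1, DCN, PDGFRA and PDGFRB, were not well above background on either array. ITGAV, the subunit of integrins that bind THY1, had 2 probes with log2 ratios of -0.33 and -0.26, and ITGB3 was not well above background. Over the 17 ligands and partners of ALCAM, THY1 and PDPN, 13 were measured and 1, NRCAM, reached a 2-fold difference (1.98% of all genes were higher and 2.13% lower), with a median of -0.0076.

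KIT, at chr4:55301268-55301327, was spotted 10 times and none of its spots was well above background. The signal was 2.68 to 3.74 in SAS and 3.17 to 4.30 in eSAS. The pixels before correction, at 41.3 to 45.4 and 41.6 to 54.9, lay above the median local background of 30 and 28. That margin was too small for any KIT spot to meet the software's criterion. Its ligand KITLG (stem cell factor) was measured on both arrays by 3 probes, the brightest with 759 in SAS and 664 in eSAS, with a mean log2 ratio of -0.16. All 17 genes of KIT signalling looked up were measured on at least 1 array, with a median of -0.0083. ETV1, a transcription factor below KIT in mast and interstitial cells, was not well above background in SAS (8.34) and had 26.2 in eSAS, at least 2.12-fold higher at 1 of 2 probes. MITF, the master factor of melanocytes, had 1 probe at least 2.48-fold higher (5.34 in SAS, not well above background, and 30.6 in eSAS), but its gene value over the probes measured on both arrays was 0.42. The 2 probes of GAB2, an adaptor protein, disagreed: 1 had 67.7 in SAS and was not well above background in eSAS (3.27), at least 4.29-fold lower, and the other had 80.1 and 126, a log2 ratio of 0.70. Mast cells and melanocytes are cell types that carry KIT. Of 3 mast cell genes on the array, HDC was well above background in SAS alone (17.9) and CPA3 in eSAS alone (28.6, at least 2.31-fold higher), and the summed signal was 25.4 and 47.9. Of 4 melanocyte genes, 3 were well above background in SAS and 2 in eSAS, with a summed signal of 958 and 893, most of it from PMEL, while MLANA was not well above background in SAS or eSAS.

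BMI1 was measured by 3 probes, at chr10:22657593-22658001, chr10:22659583-22659642 and chr10:22659818-22659884. In that order they had 138 and 150, 254 and 249, and 1171 and 1245 in SAS and eSAS, with log2 ratios of 0.18, 0.024 and 0.14. The gene value was 0.12, and the spread of 0.16 between its probes was wider than that. Its partners in the complex also stayed within 2-fold. The ubiquitin ligase subunits RING1 and RNF2 had log2 ratios of 0.18 and -0.19. PCGF2 (MEL18), the closest relative of BMI1, had 130 and 148, a log2 ratio of 0.24. EZH2, the methyltransferase of Polycomb repressive complex 2, had 8637 and 8396, a log2 ratio of 0.014. RBBP7, a histone-binding subunit, had 68045 and 44154, a log2 ratio of -0.57. Of 30 genes of both complexes and their targets, 29 were measured and 0 reached a 2-fold difference in either direction, near the 1.98% of all genes that were higher and the 2.13% that were lower, with a median of 0.037. CDKN2A, the target of BMI1 that holds back the cell cycle, had 10550 and 10821 at one probe and 40351 and 44950 at the other, log2 ratios of 0.091 and 0.21. CDKN2B, its neighbour, was higher with both probes, by 0.66 and 0.78 on the log2 scale, with 28.2 and 43.0 at one and 317 and 525 at the other.

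Over all 5 lists, 92 of 106 pathway genes were measured. Of these 1 was at least 2-fold higher, 2 were at least 2-fold lower and 89 lay between, with a median log2 ratio of 0.013. Those counts are near the share of all genes, 1.98% higher and 2.13% lower. The plot of markers and pathway genes sets these ratios side by side, list by list.

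**Figure D4:**
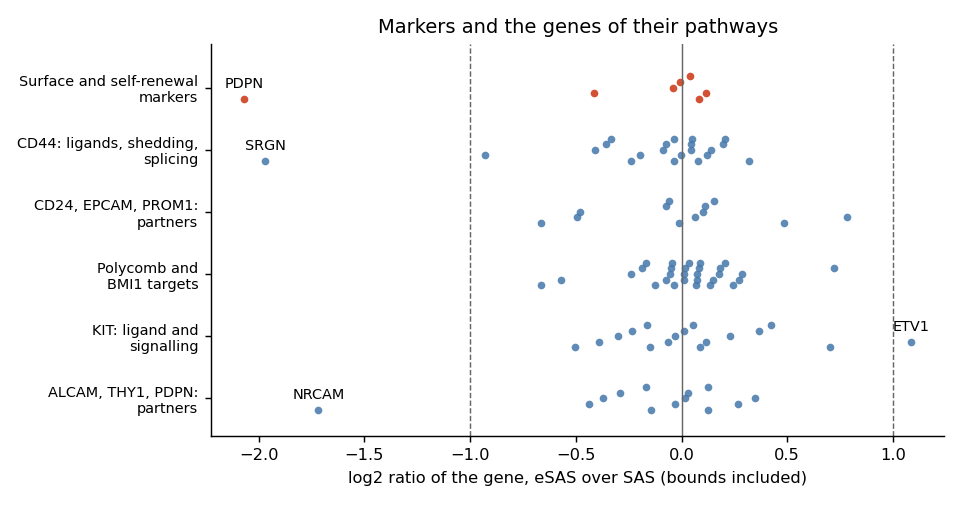
Log2 ratio of eSAS over SAS for each measured gene (points, mean of its probes, lower bounds included; 1 array per population), for the 7 measured markers in the top row and the 5 lists of pathway genes under it, with dashed lines at a 2-fold difference. PDPN (-2.07), SRGN (-1.97), NRCAM (a bound) and ETV1 (a bound) lie outside the dashed lines.

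The measured markers other than PDPN stayed within 2-fold as gene values under each of the 15 other ways of processing that gave them a value. The plot of processing settings shows that they moved most under the normexp correction fitted to every spot, where, with mean pixels, BMI1 was at 0.95 and CD44 and EPCAM at -0.61 and -0.55, and 2 marker probes passed 2-fold higher. Relative to the median of all probes under that correction, BMI1 stood at 0.42 and CD44 and EPCAM at -1.14 and -1.08.

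**Figure D5:**
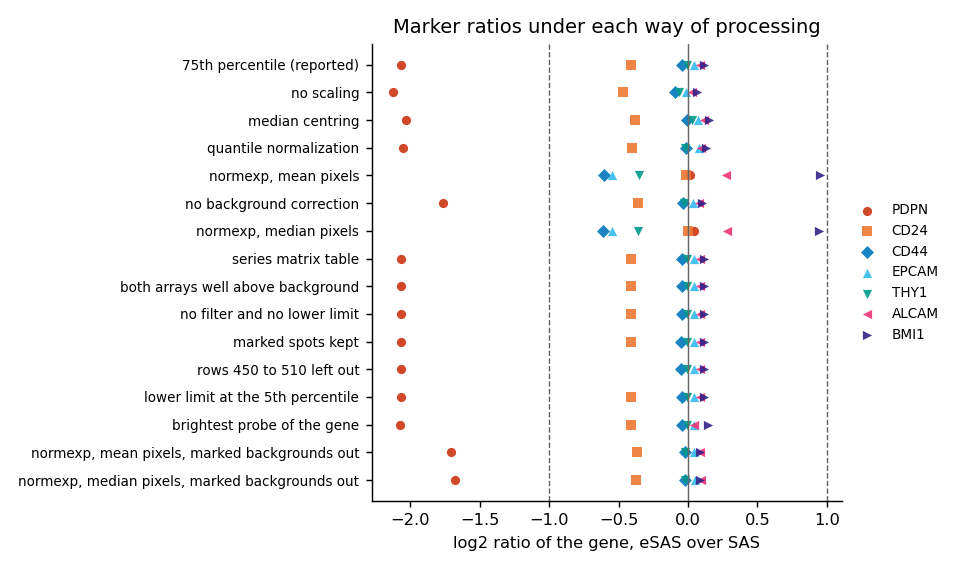
Log2 ratio of eSAS over SAS of the 7 measured marker genes (symbols) under the reported processing (top row) and 15 alternatives (other rows; 1 array per population), with dashed lines at a 2-fold difference. PDPN lies between -2.12 and -1.68 except under the 2 normexp corrections fitted to every spot, where it lies at 0.012 and 0.045.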

How the data were processed

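The authors deposited the output of Agilent Feature Extraction 10.7.3.1 (per the labels) for each array, as linear intensity with background and spatial trend removed and no scaling between arrays. The table deposited for the series held the same processed intensity at all 45015 spots (relative tolerance 1e-06), and served as an alternative. The log2 of the processed signal minus each array's 75th percentile over probe spots was used. Spots that the software marked on either array, as non-uniform or as outliers of their population, were left out, spots were averaged per probe on the log2 scale, and probes per gene. Probes were taken as well above background if over 50% of their spots were. Where that held on 1 array only, the fold is a lower bound against the higher of the dim probe's signal and the lowest signal well above background there. Normexp used limma 3.58.1 in R 4.3.3 with an offset of 50, other steps Python 3.11.15. Of 41000 probes, 23958 were named through their accession with the RefSeq table of GRCh38.p14, 2755 by current and 1032 by older symbols, and 13255 kept the array's name. Positions are the array's, in hg18. The markers and the 5 lists were chosen with earlier results of these data known. Every member was named, with each listed gene at least 2-fold apart at a probe or as a gene and 19 set genes, not all of which are reported here. VCAN, RBBP7, CDKN2B, LUM and other genes were named after their values were seen. The counting was run on simulated data, where 100% of 200 changed probes were recovered. That run checked the counting steps alone, and how reliable the values of these arrays are was not tested by it.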

Additional observations from a re-analysis of the deposited data

How the results depend on the processing

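Over 15 alternatives, 154 of 202 values were labelled the same, 46 moved and 2 reversed. The same meant a log2 ratio within 0.066, the SD of replicate spots, or a count within a set fold of the reported one. Only a value at least 2-fold apart could be labelled reversed, so sign changes of smaller ratios were not counted there. Some alternatives, such as the table deposited for the series, left values the same by construction. Normexp fitted to every spot changed most. With mean and with median pixels, the log2 ratio of PDPN reversed to 0.012 and 0.045, and the others were -0.61 and -0.61 for CD44, -0.017 and -0.0036 for CD24, 0.95 and 0.94 for BMI1, 0.28 and 0.28 for ALCAM, -0.35 and -0.36 for THY1, and -0.55 and -0.55 for EPCAM. The marker probes at least 2-fold higher then numbered 2 and 2 and those lower 0 and 0, all probes 11264 and 11251 higher and 183 and 177 lower, and pathway genes 27 and 26 higher. The median of all probes moved from -0.0039 to 0.53 there. Without the marked local backgrounds, a choice made after seeing the data, PDPN was at -1.71 and -1.68, with 86 and 89 probes higher, 156 and 134 lower, and 0 pathway genes higher and 1 lower with either pixel value. Without background correction PDPN was at -1.77, with 125 probes higher, 161 lower, and 0 pathway genes higher and 1 lower. Counting only probes measured on both arrays left 250 probes higher and 335 lower, and 0 pathway genes higher and 1 lower, since bounds were not counted. With neither a filter nor a lower limit there were 1375 higher and 1536 lower. A lower limit at the 5th percentile gave 334 higher, and 0 pathway genes higher and 1 lower. With rows 450 to 510 left out, CD24 had no value. Causes other than by construction were not tested.

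No paired analysis was possible because each group has a single array, which also leaves no array to omit. Single-spot values such as CD24 and NRCAM have no spot replicate, and signals near the background limit of 12.8 and 15.2 set only bounds.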

Other observations

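The probes lying within 150 kb of the markers in hg18, a window chosen after values were seen, were also read. Of 37 such probes, 16 were measured, 2 were at least 2-fold higher, against 1.83% of all probes, and 0 lower, against 1.97%. Both higher probes belong to 1 gene, MCAM (CD146), an adhesion protein of the immunoglobulin superfamily in the window around THY1 on chromosome 11, with probes of other genes between MCAM and THY1. They rose from 208 in SAS to 1196 in eSAS, 5.97-fold, and from 62.3 to 378, 6.29-fold, whereas THY1 had a log2 ratio of -0.0071. COMMD3, in the window around BMI1, had a log2 ratio of 0.22. The probes in the window around PDPN, of LRRC38, were not well above background on either array.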
